A study of Mus musculus with 30 samples.

Results

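The messenger RNA of 10 genes for regulators of G protein signalling (RGS) was measured in the nucleus accumbens, a part of the ventral striatum that handles reward and pain relief. They are 5 genes of the R4 subfamily (Rgs2, Rgs3, Rgs4, Rgs8 and Rgs16), 3 of the RZ subfamily (Rgs17, Rgs19 and Rgs20) and the R12 members Rgs10 and Rgs14. They were taken by symbol from the 55401 gene IDs of the count table, and the rule itself uses no measured value, although the list was drawn up with earlier results of these data known. All 10 passed the filter on low counts, which kept 23736 genes. RNA came from punches of both accumbens of male C57BL/6J mice, with 1 mouse per library. To model neuropathic pain, mice underwent the tibial form of spared nerve injury (SNI), and controls had a sham operation. At 4 weeks they began 3 weeks of intraperitoneal injections, given 2 times a day. Sham mice received saline (5 libraries), tianeptine at 30 mg/kg (6) or desipramine at 15 mg/kg (4), and SNI mice received saline (5), tianeptine (6) or desipramine (4) at the same doses. The antidepressant tianeptine is an agonist of the mu-opioid receptor. Desipramine, a tricyclic, inhibits the transporter that clears noradrenaline. Sham mice on saline are the stated control, and the series title places the comparison in lasting relief from allodynia by tianeptine.

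RGS proteins speed the hydrolysis of GTP by G alpha subunits of the Gi and Gq families and so shorten the signal that a receptor sends through them. R4 proteins are small and consist of little beyond the RGS domain, RZ proteins carry a string of cysteines near the N terminus and include the strongest regulators of G alpha z, and Rgs14 adds domains that bind Ras-type GTPases and inactive G alpha i. In the striatum, where medium spiny neurons carry dopamine, opioid, muscarinic and glutamate receptors of these classes, Rgs4 in particular is known to limit opioid and dopamine receptor signalling.

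Each library held 24.5 to 120.7 M (mega) counts, and the 6 deepest, which are replicate 5 of both saline groups and replicates 5 and 6 of both tianeptine groups, form a second set by their library numbers, which was a term in every test. Markers of medium spiny neurons were abundant, with a summed level of 1210 to 8170 CPM (counts per M, scaled by trimmed mean of M values) over 13 genes and none at 0 in any library. Libraries of the same group differed in markers of tissue that borders the accumbens. SNI desipramine replicates 2 and 3 stood apart in 12 markers of septal and hypothalamic neurons, with scores of 1.84 and 1.92. No other library exceeded 0.98 in that score. Other scores had their extremes elsewhere, with 4.02 for choroid plexus in sham tianeptine replicate 6. For fibroblasts and meninges, sham saline replicate 3 had 2.85. Cortical excitatory scores ran from -2.72 in sham tianeptine replicate 2 to 2.61 in sham desipramine replicate 3. A score is the mean over a marker list of log2 CPM, each gene centred on its mean over all libraries. In bulk tissue, fewer cells of a type and less RNA per cell cannot be told apart.

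Rgs4 was the most abundant of the 10 genes per unit of length. It had a mean of 73.8 CPM per kb of merged exons (SD 16.3, n = 30 libraries), and it stood above the next gene in 30 of 30 libraries. Rgs2, a regulator that prefers Gq, followed at 25.9 ± 4.69 (SD, n = 30). The next places went to Rgs8 at 23.7 ± 4.11, Rgs10 at 21.2 ± 5.03 and Rgs14 at 21 ± 5.33 CPM per kb. These 4 genes were not clearly ordered: Rgs2 exceeded Rgs8 in 22 libraries, Rgs8 exceeded Rgs10 in 21, and Rgs10 exceeded Rgs14 in 12 of 30. The RZ genes Rgs20, at 14.3 ± 2.76, and Rgs17, at 13.5 ± 2.77, also changed places between libraries, with Rgs20 the higher in 20 of 30. Rgs19 had 6.76 ± 0.768 CPM per kb, below Rgs17 in 29 libraries. Rgs16 at 2.45 ± 0.559 and Rgs3 at 2.02 ± 0.233 were the lowest, and Rgs16 was the higher of this pair in 24. On the same scale Rgs9, the R7 member that marks striatal neurons, had 145 CPM per kb.

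**Figure D1:**
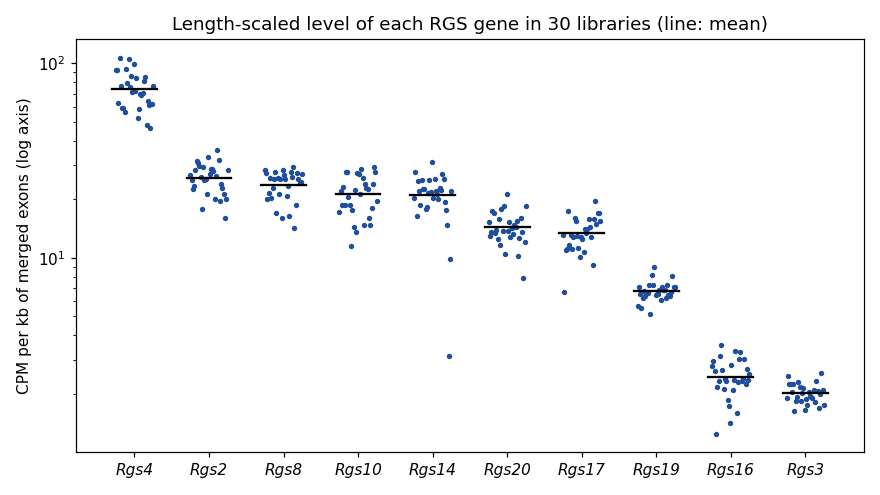
Level of each gene per kb of merged exons in each of the 30 libraries, on a log axis, ordered by mean (line). Rgs4 lies above every other gene, Rgs2 to Rgs14 overlap, and the lowest Rgs14 value, 3.15 CPM per kb, is far below the rest of that gene's range.

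The 3 most abundant R4 genes lie on chromosome 1, and their proximal promoters are shown because cyclic AMP response elements are known to respond to the receptor pathways that these proteins restrain. RefSeq starts on GRCm38.p6 were matched for 8 of the 10 members, with 13 windows of 300 bases (250 before and 50 after the start). The full element, TGACGTCA, was in 0 of the 13 windows and in 1.79% of 32851 windows of all genes. Its 5-base core TGACG, searched on both strands and contained in the full element, was found in 3 of the 13 windows and in 20.8% of all windows. The 3 were 1 window each of Rgs4, Rgs2 and Rgs8. A stretch upstream of each start is given 5′ to 3′ on the gene's strand, with the core in capitals, which reads CGTCA where it lies on the other strand.
Rgs4, chr1:169747824-169747892, minus strand: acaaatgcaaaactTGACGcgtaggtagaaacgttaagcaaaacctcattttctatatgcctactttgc
Rgs2, chr1:144004162-144004266, minus strand: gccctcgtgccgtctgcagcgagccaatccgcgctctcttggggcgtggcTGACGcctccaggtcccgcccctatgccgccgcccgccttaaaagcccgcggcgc
Rgs8, chr1:153652941-153653024, plus strand: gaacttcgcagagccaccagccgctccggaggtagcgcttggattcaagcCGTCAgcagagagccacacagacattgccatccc
Rgs4 and Rgs2 each held a second core, at 141 and 185 bases before the start. The E-box CACGTG bound by clock proteins was found for Rgs19 (7.15% of all windows), the AP-1 motif TGACTCA for Rgs17 (5.2%), the D-box TTATGTAA for none (0.938%), and TATAAA for Rgs3 and Rgs4 (13.6%). A match describes the letters only, and binding was not measured.

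Nerve injury was compared with sham surgery within each treatment. Rgs14 was lower after SNI among the mice on desipramine, and it was the only member that passed the test in any of the 15 comparisons made. The test was edgeR's quasi-likelihood test with Benjamini-Hochberg adjustment over all 23736 genes at a threshold of 0.05, and all adjusted p values of genes below come from it. On desipramine, 1 of 10 members passed where 11.3% of all genes did, and 3 of 10 had an unadjusted p under 0.05 where 27.6% of all genes did. On saline, 0 of 10 members passed (0% of genes), and 0 had an unadjusted p under 0.05 (9.74%). On tianeptine the counts were likewise 0 (0% of genes) and 0 (1.21%). Averaged over the 3 treatments, 0 of 10 passed (1.84% of genes) and 2 of 10, Rgs4 and Rgs17, had an unadjusted p under 0.05 (22.6%). The median log2 fold change of the 10 genes was 0.02 on desipramine, 0 on saline and 0.01 on tianeptine, against 0.01, 0 and 0 over all genes tested, with 5 members higher and 5 lower each time.

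Rgs14, known from hippocampal neurons as a brake on synaptic plasticity, had 90.9, 107, 91.8 and 132 CPM in the 4 sham desipramine libraries. In the 4 SNI desipramine libraries it had 62.6, 13.4, 42 and 94.3 CPM. Replicate 4 of the SNI group lay inside the sham range and the other 3 lay below it, so the groups overlapped. The log2 fold change was -0.99 ± 0.29 (SE, 95% interval -1.59 to -0.38, adjusted p = 0.0314), a fold of 0.504. In the other 4 groups Rgs14 ranged from 70.1 to 118 CPM, with means of 94.6 ± 18.1 in sham saline (SD, n = 5), 92.5 ± 9.36 in SNI saline (n = 5), 88.5 ± 12.6 in sham tianeptine (n = 6) and 95 ± 14.8 in SNI tianeptine (n = 6). The difference between SNI and sham was -0.04 ± 0.26 (log2, SE) on saline and 0.1 ± 0.24 on tianeptine. Averaged over treatments it was -0.31 ± 0.15 (adjusted p = 0.227), and -0.46 (adjusted p = 0.021) without SNI desipramine replicate 4.

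The 2 libraries with least Rgs14, SNI desipramine replicates 2 and 3, had the lowest medium spiny neuron scores. The scores of the 4 SNI desipramine libraries, in replicate order, were -0.24, -2.39, -0.71 and 0.4, against -0.36 to 0.58 in sham desipramine. The summed level of the 13 markers was 1210 to 7210 CPM in SNI desipramine and 4230 to 8170 CPM in sham desipramine. All 13 of these markers were lower in SNI desipramine and 0 passed, while all 12 septal and hypothalamic markers were higher and 7 passed. The marker scores come from the same libraries, and the septal markers differed between these groups. A fit with such scores as covariates, here and below, can remove an effect of surgery or drug together with that of tissue. With the scores of medium spiny, cortical and septal neurons as covariates, Rgs14 differed by -0.5 (log2, adjusted p = 0.708), and 0 genes of the whole table passed. Without SNI desipramine replicates 2 and 3, an alternative added after seeing the data, the difference was -0.44 (adjusted p = 0.615). Leaving out single libraries gave -0.68 (adjusted p = 0.0729) without SNI desipramine replicate 2 and -0.89 (0.116) without replicate 3. Without replicate 4 it was -1.44 (0.000619), and without sham desipramine replicate 2, 3 or 4 the adjusted p was 0.0575, 0.0503 or 0.0753. Rgs14 passed in 9 of the 18 alternatives, all of which kept its sign.

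**Figure D2:**
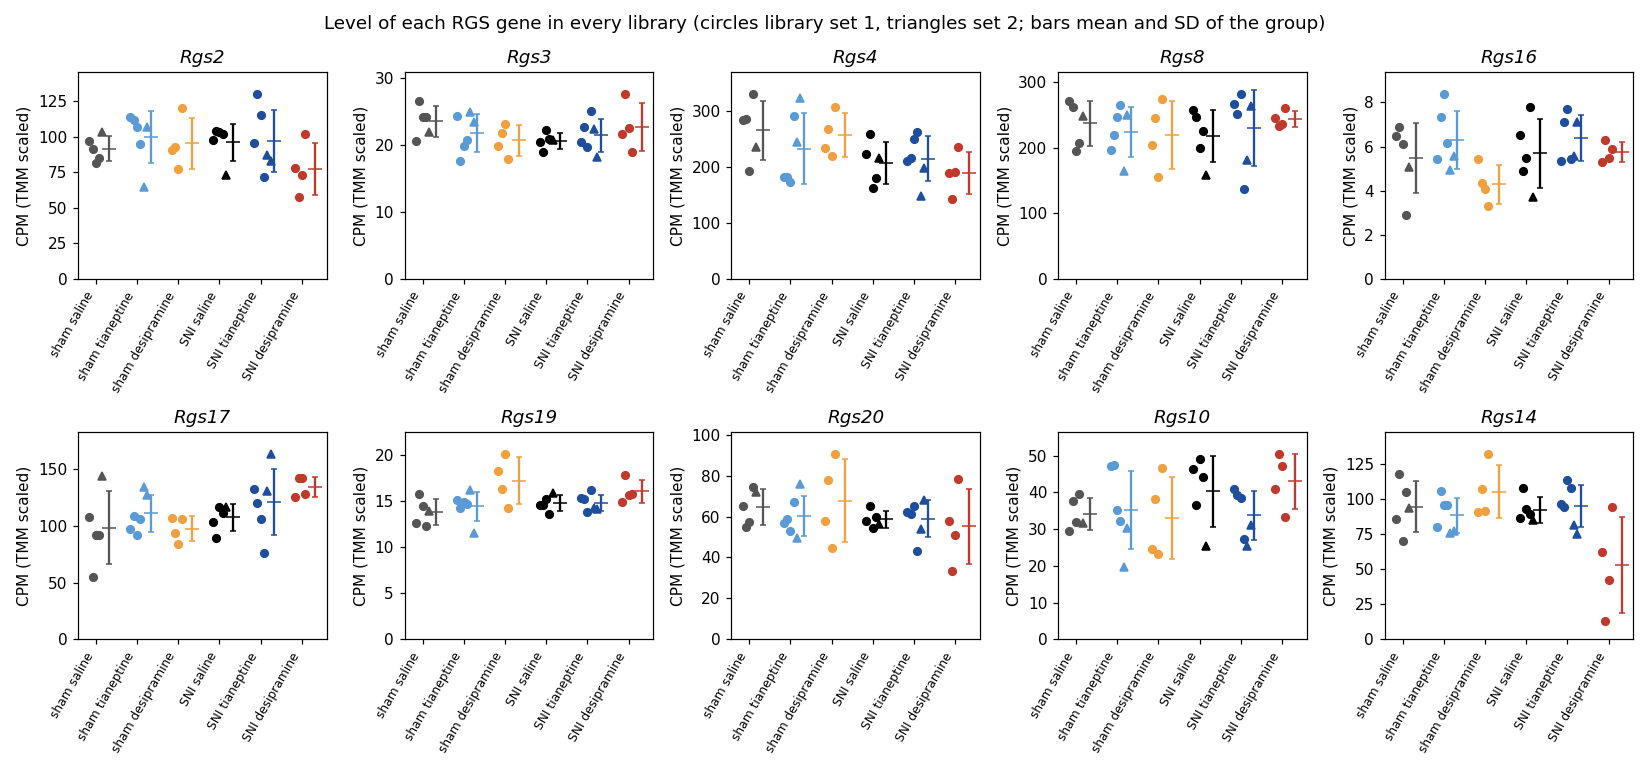
CPM of each gene in every library by group, with circles for the first library set, triangles for the second, and bars for the group mean and SD. Rgs14 in SNI desipramine runs from 13.4 to 94.3 CPM, with 3 of its 4 libraries below the other 5 groups.

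Among the RZ genes, Rgs17, whose protein acts on Gi and G alpha z and is known to associate with mu-opioid receptors in the brain, had 107, 93.3, 83.7 and 106 CPM in sham desipramine. It had 125, 142, 142 and 128 CPM in SNI desipramine, so that all 4 SNI libraries lay above all 4 sham libraries. Groups of this comparison did not overlap, in either direction, for 9.96% of all genes. The difference of 0.46 ± 0.16 (log2, SE, 95% interval 0.14 to 0.79) missed the threshold, with an adjusted p of 0.058. It was 0.16 ± 0.14 on saline and 0.12 ± 0.13 on tianeptine, and 0.25 ± 0.08 averaged over treatments (adjusted p = 0.0875). On desipramine it passed in 3 of 18 alternatives. The adjusted p was 0.0432 with DESeq2, 0.0488 without SNI desipramine replicate 4 and 0.0207 without sham saline replicates 2 and 3. The last of these was added after seeing the data. It leaves out libraries outside this comparison, which act only through the shared fit, and replicate 2 held the lowest Rgs17 value, 55.2 CPM. The average passed in 1 of 40 alternatives, without SNI tianeptine replicate 4 (0.28, adjusted p = 0.0436). The cortical excitatory scores of these libraries were 2.24, 1.3, 2.61 and -1.48 in sham desipramine and -2.52, -1.94, -1.09 and 0.39 in SNI desipramine. With the tissue scores as covariates the difference on desipramine was 0.23 (adjusted p = 0.814).

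The other RZ genes did not pass with all libraries. Rgs20, the brain-enriched regulator of G alpha z, had 44.6 to 90.4 CPM in sham desipramine and 33.5 to 78.4 in SNI desipramine, a difference of -0.3 ± 0.2 (log2, SE, adjusted p = 0.356). Without SNI desipramine replicate 4 it was -0.53 (adjusted p = 0.0486). Its counts are less certain, since its exons share 127 bases with Atp6v1h on the opposite strand and the strand setting of the counting is not given in the sources used here. Rgs19, which binds the adaptor GIPC, differed by -0.1 ± 0.1 on desipramine, 0.1 ± 0.09 on saline and 0.04 ± 0.08 on tianeptine.

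Among the R4 genes, Rgs4 was lower in the SNI mean of every treatment without passing. Its values were 285, 286, 193, 331 and 237 CPM in sham saline and 223, 259, 163, 180 and 216 in SNI saline. On desipramine they were 235, 268, 220 and 308 in sham and 189, 143, 192 and 236 in SNI. On tianeptine the lowest, median and highest values were 174, 214 and 324 CPM in sham and 149, 215 and 263 in SNI. In each treatment the ranges overlapped. The log2 differences were -0.35 ± 0.19 (SE) on saline, -0.44 ± 0.21 on desipramine and -0.12 ± 0.17 on tianeptine, and -0.3 ± 0.11 on average (95% interval -0.53 to -0.08, adjusted p = 0.106). The average passed without SNI desipramine replicate 4 (-0.35, adjusted p = 0.0332) and was -0.08 with the tissue scores as covariates (adjusted p = 1). With those covariates the difference on desipramine turned to 0.05 (adjusted p = 0.977).

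Rgs2 had 77.5 to 120 CPM in sham desipramine and 57.9 to 102 in SNI desipramine, a difference of -0.29 ± 0.17 (log2, SE, adjusted p = 0.286). Without SNI desipramine replicate 4 it was -0.47 (adjusted p = 0.0484). Rgs8, found in striatal and Purkinje neurons, had 155 to 274 and 234 to 261 CPM in these groups, a difference of 0.16 ± 0.19. The SNI desipramine libraries thus lay within the sham range for Rgs8, including replicate 2, which had 234 CPM while its Rgs14 was 13.4 CPM. Rgs16, which acts on Gi and Gq and is driven by activity and the clock in other tissues, differed by 0.42 ± 0.21 (adjusted p = 0.208). Rgs3, which has long and short forms and acts on Gi and Gq, differed by 0.13 ± 0.12. For Rgs10, a short R12 protein best known from microglia, the difference was 0.38 ± 0.2 (adjusted p = 0.231), from 23.2 to 46.6 CPM in sham and 33.4 to 50.4 in SNI desipramine. The counts of Rgs16 and Rgs8 could hold reads of antisense transcripts, which share 236 and 70 exon bases with them.

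**Figure D3:**
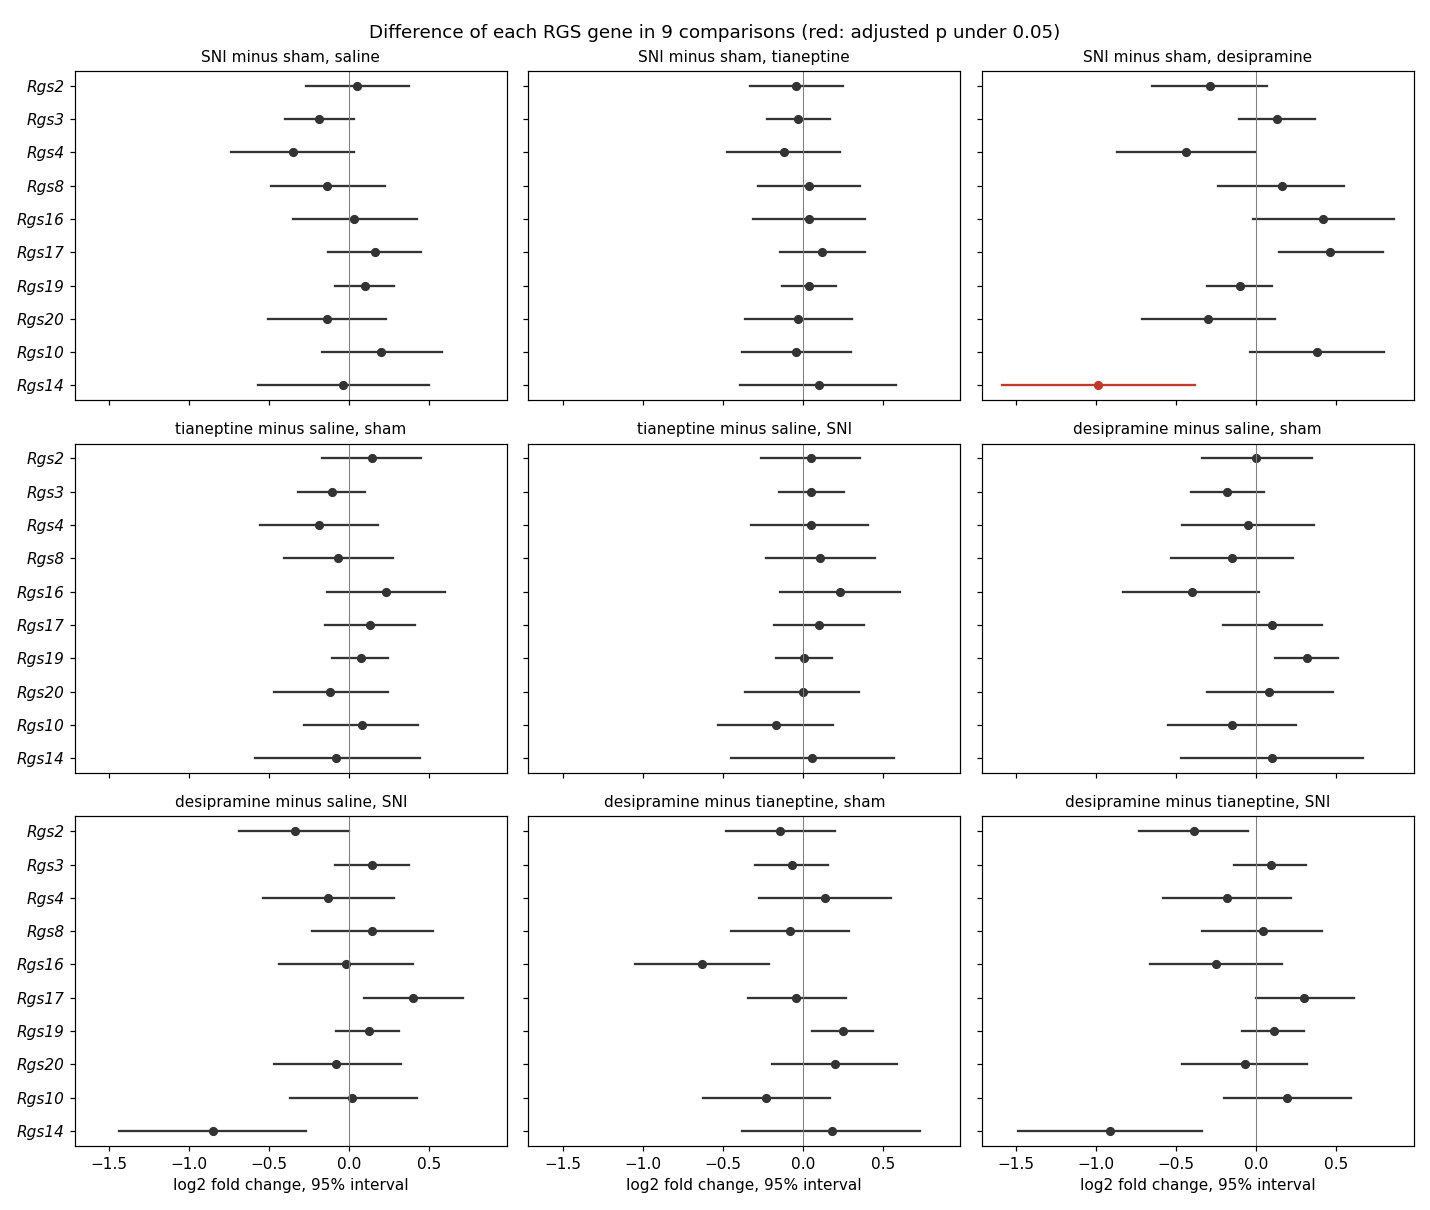
Log2 fold change with 95% interval for the 10 genes in 9 comparisons of 2 groups, with red for an adjusted p under 0.05. Rgs14 in SNI minus sham on desipramine, at -0.99, is the only red point, and the intervals of all 10 genes include 0 in the comparisons of tianeptine with saline.

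Tianeptine was compared with saline. No member differed by more than 0.23 on the log2 scale, the value of Rgs16 in both surgeries, where it had 2.91 to 6.88 CPM in sham saline, 4.95 to 8.38 in sham tianeptine, 3.72 to 7.79 in SNI saline and 5.36 to 7.69 in SNI tianeptine. In sham mice 0 of 10 members passed (0% of all genes) and 0 had an unadjusted p under 0.05 (6.84%). In SNI mice the counts were 0 (0%) and 0 (2.87%), and over both surgeries 0 (0%) and 0 (4.74%). The effect of tianeptine did not differ detectably between surgeries, with 0 members passing (0%) and 0 under an unadjusted p of 0.05 (4.2%). The widest intervals were those of Rgs14, from -0.59 to 0.44 in sham and -0.45 to 0.57 in SNI mice. Those of Rgs19 were the narrowest, from -0.11 to 0.24 and -0.17 to 0.18. For Rgs4 they were -0.56 to 0.18 in sham and -0.32 to 0.41 in SNI. For Rgs17 they were -0.15 to 0.41 and -0.18 to 0.38. Changes of the size of the Rgs14 difference on desipramine lie outside all of these intervals.

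Desipramine was compared with saline, and no member passed. In sham mice 0 of 10 passed (0% of genes) and 1, Rgs19, had an unadjusted p under 0.05 (7.63%). In SNI mice 0 passed (0%) and 2, Rgs14 and Rgs17, had an unadjusted p under 0.05 (17.5%). Over both surgeries 0 passed (0.0295%) and 2, Rgs17 and Rgs19, had an unadjusted p under 0.05 (12.5%). For the difference between surgeries 0 passed (0%) and 1, Rgs14, was under an unadjusted p of 0.05 (12.3%).

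Rgs19 had 12.6, 15.8, 14.5, 12.3 and 13.9 CPM in sham saline and 18.3, 16.3, 20.1 and 14.3 in sham desipramine, where 3 of the 4 libraries exceeded all of the saline group. The log2 difference was 0.32 ± 0.1 (SE, 95% interval 0.12 to 0.51, adjusted p = 0.547). In SNI mice it was 0.12 ± 0.1, and over both surgeries 0.22 ± 0.07 (adjusted p = 0.238). Rgs17 in SNI mice had 103, 89.1, 117, 111 and 117 CPM on saline, all below the 125 to 142 CPM on desipramine. Groups of this comparison did not overlap for 2.14% of all genes. Its log2 difference was 0.4 ± 0.15 (adjusted p = 0.174) in SNI and 0.1 ± 0.15 in sham mice.

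Rgs14 in SNI mice had 86.3, 108, 93.1, 89.7 and 85.1 CPM on saline, and 3 of the 4 desipramine libraries lay below them all. The log2 difference was -0.85 ± 0.28 (95% interval -1.44 to -0.27, adjusted p = 0.139) in SNI and 0.1 ± 0.28 in sham mice. The difference between these effects was -0.95 ± 0.39 (adjusted p = 0.342), so the test did not show that desipramine acted differently by surgery. Without SNI desipramine replicate 4 the effect in SNI mice was -1.3 (adjusted p = 0.00473) and the difference between effects -1.41 (adjusted p = 0.0269). Without that library Rgs2 passed as well in SNI mice, at -0.52 (adjusted p = 0.0409) where it was -0.34 ± 0.17 (SE, adjusted p = 0.288) with all libraries. Medium spiny scores in SNI mice ran from -0.4 to 0.4 on saline and from -2.39 to 0.4 on desipramine. Only desipramine replicates 2 and 3, at -2.39 and -0.71, lay below the saline range. All 13 medium spiny markers were lower on desipramine and 0 passed, and the score itself was not tested. With the tissue scores as covariates the effect in SNI mice was -0.55 (adjusted p = 0.326).

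The drugs were then compared with each other. In sham mice 0 of 10 members passed (0.0716% of genes) and 2, Rgs16 and Rgs19, had an unadjusted p under 0.05 (12.1%). In SNI mice 0 passed (1.33%) and 2, Rgs2 and Rgs14, were under an unadjusted p of 0.05 (21.5%). Over both surgeries 0 passed (0.438%) and 3, Rgs2, Rgs16 and Rgs19, were under it (14.2%). These comparisons share the desipramine libraries with those above, so they are not separate evidence on the same genes.

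Rgs16 had 5.44, 7.33, 8.38, 6.17, 4.95 and 5.58 CPM in sham tianeptine, with a median of 5.87, and 5.43, 4.34, 4.08 and 3.31 in sham desipramine. Only desipramine replicate 1 reached into the tianeptine range. The log2 difference, desipramine minus tianeptine, was -0.63 ± 0.2 (SE, 95% interval -1.05 to -0.21, adjusted p = 0.248) in sham and -0.25 ± 0.2 in SNI mice. Over both surgeries it was -0.44 ± 0.15 (adjusted p = 0.166). Clock genes moved between the same groups: of 16 listed, 4 passed in sham mice, among them Ciart at -1.17 ± 0.13 (log2, SE, adjusted p = 3.8e-05), Dbp at -0.8 ± 0.16 (0.048), Nr1d2 at -0.49 ± 0.08 (0.0106) and Arntl at 0.66 ± 0.12 (0.0267). In SNI mice 7 of the 16 passed, all of them lower. By direction alone 15 were lower and 1 higher, with a median log2 difference of -0.37 against -0.2 in sham mice. Whether Rgs16 moved with them was not tested.

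Rgs2 in SNI mice had a lowest, median and highest value of 71.5, 91.6 and 130 CPM on tianeptine, and 77.7, 57.9, 72.9 and 102 CPM on desipramine. The log2 difference was -0.39 ± 0.17 (95% interval -0.73 to -0.05, adjusted p = 0.17), and it passed without SNI desipramine replicate 4 (-0.56, adjusted p = 0.019). With the tissue scores as covariates it was -0.17 (adjusted p = 0.639). Rgs14 in SNI mice had 75 to 114 CPM on tianeptine, and the difference was -0.91 ± 0.28 (adjusted p = 0.0775). For Rgs14 it passed with DESeq2 (-0.92, adjusted p = 0.0247) and without SNI desipramine replicate 4 (-1.36, 0.00163). Rgs19 differed by 0.25 ± 0.09 in sham (adjusted p = 0.308) and 0.18 ± 0.07 over both surgeries (adjusted p = 0.231).

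Within groups, most of the 10 genes varied together with at least 1 of the cell type marker scores. Each gene's log2 CPM was correlated with 5 marker scores over the 30 libraries after group and library set means were removed. Of the 50 relations, 18 passed a 2-sided permutation test (100000 resamples, Benjamini-Hochberg over the 50), 14 of these also by rank. The test shuffled the 30 values left after the means were removed as if they were independent, although 23 degrees of freedom remain. Its p values can therefore be too small, and relations near the threshold are uncertain. In 10 of them the relation passed again within the 24 libraries of the first set and without the 2 libraries farthest from the median score. Group means were taken anew in the first set. For the set without the 2 farthest libraries the group and library set means still included them. The r values of that set are therefore not free of the libraries left out.

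The medium spiny score took 7 of these 10 relations. Rgs20 rose with it most closely (Pearson's r = 0.86, adjusted p = 0.000167, Spearman's rho = 0.81, adjusted p = 0.000125, permutation tests). Its r was 0.85 in the first set and 0.79 without the 2 farthest libraries, SNI desipramine replicates 2 and 4. Rgs14 also rose with it (r = 0.84, adjusted p = 0.000167, rho = 0.56, adjusted p = 0.00728). Its r was 0.87 in the first set, and over both sets it fell from 0.84 to 0.49 without those libraries. Rgs2 had r = 0.68 (adjusted p = 0.000333) and rho = 0.56 (adjusted p = 0.00845), with 0.72 in the first set and 0.58 without the 2 libraries. Rgs4 had r = 0.55 (adjusted p = 0.00525) and rho = 0.55 (adjusted p = 0.00958), with 0.62 and 0.48.

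Rgs8 had r = 0.59 (adjusted p = 0.0048) but rho = 0.77 (adjusted p = 0.000125), and its r became 0.85 without the 2 farthest libraries and was 0.58 in the first set. SNI desipramine replicate 2, with the lowest score, had 234 CPM of Rgs8, more than the gene's overall mean of 228. Rgs3 and Rgs19 ran the other way. Rgs3 had r = -0.67 (adjusted p = 0.0003) and rho = -0.62 (adjusted p = 0.00243), with -0.75 in the first set and -0.55 without the 2 libraries. Rgs19 had r = -0.57 (adjusted p = 0.00461) and rho = -0.65 (adjusted p = 0.0013), with -0.56 and -0.66.

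The other 3 of the 10 relations concerned Rgs10 and Rgs4. Rgs10 was low where the score of the 10 cortical excitatory markers was high (r = -0.82, adjusted p = 0.000167, rho = -0.79, adjusted p = 0.000125). Its r was -0.82 in the first set and -0.81 without SNI tianeptine replicates 4 and 6. It ran from 19.7 CPM in the library with a cortical score of 2.4 to 50.4 CPM in one with -1.94. Rgs10 also rose with the septal and hypothalamic score (r = 0.7, adjusted p = 0.0003, rho = 0.74, adjusted p = 0.000125), with 0.69 and 0.7. Rgs4 fell with that score (r = -0.6, adjusted p = 0.00314, rho = -0.58, adjusted p = 0.00475), with -0.59 and -0.53. With the microglia score Rgs10 had r = 0.05 (adjusted p = 0.926) and rho = 0.02 (adjusted p = 0.917) in these permutation tests. Rgs16 passed with none of the 5 scores, its r values lying between -0.2 and 0.15.

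The other 8 relations missed the threshold in at least 1 of the smaller sets of libraries. For some r stayed about as large: Rgs17 with the septal score had r = 0.47, then 0.44 in the first set and 0.48 without the 2 farthest libraries, and Rgs19 with the cortical score had 0.44, then 0.47 and 0.42. Rgs17 with the cortical score (r = -0.55, rho = -0.63, permutation adjusted p = 0.00525 and 0.00225) had -0.44 without the 2 farthest libraries, and with the microglia score its r of -0.48 became -0.2. Rgs14 with the thalamic and habenular score had r = -0.6 (rho = -0.47, permutation adjusted p = 0.0045 and 0.0376) and -0.65 in the first set. Its r became -0.25 without SNI desipramine replicates 2 and 4, so that the size of r rests largely on those libraries. Scores share their libraries and are related to each other, so the relations are not independent.

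**Figure D4:**
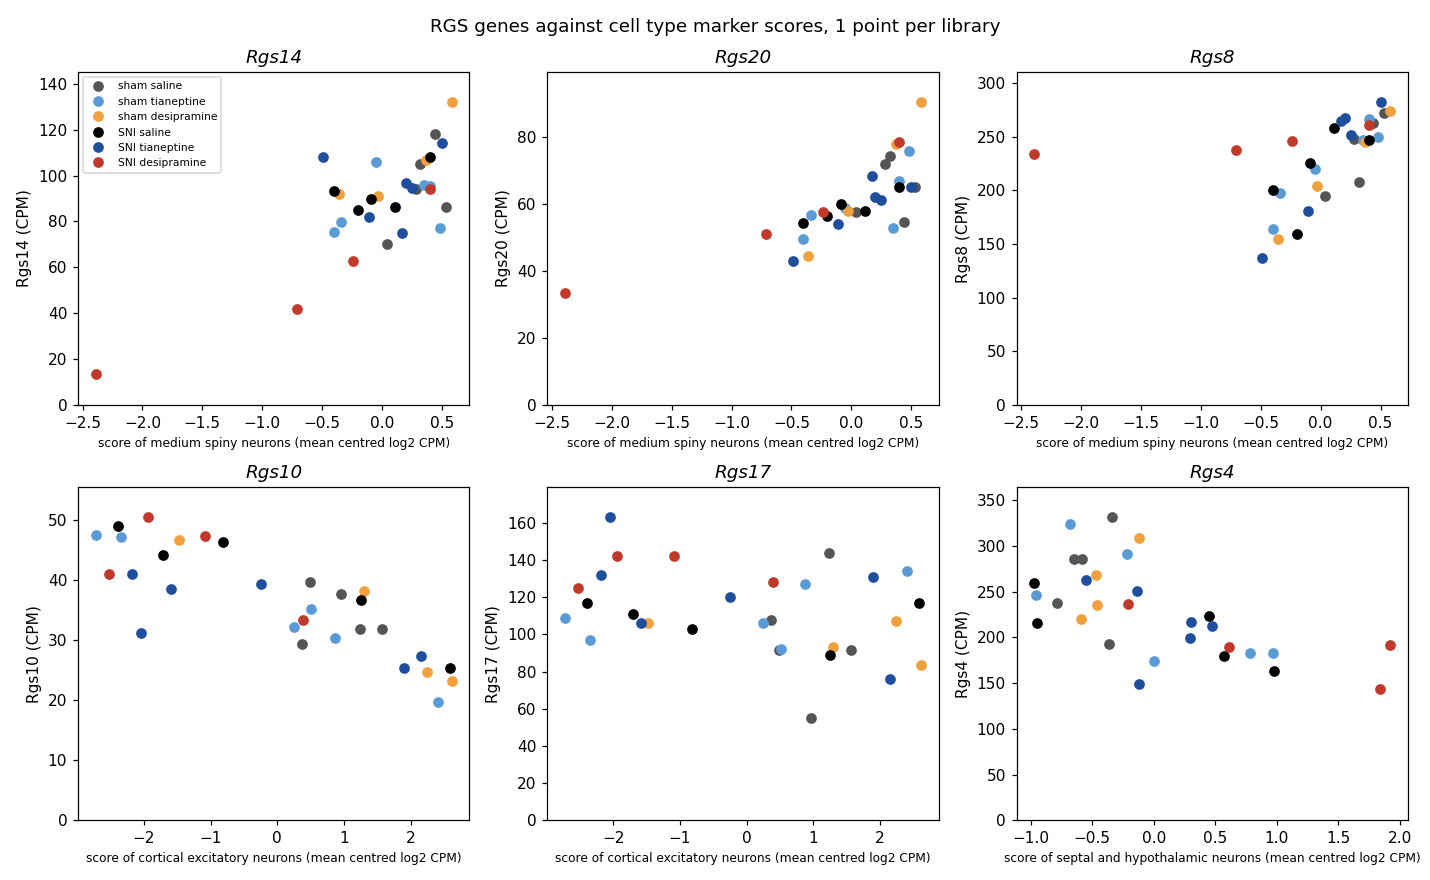
CPM of 6 of the genes against a cell type marker score, with 1 point per library coloured by group. Rgs14 and Rgs20 reach their lowest values, 13.4 and 33.5 CPM, in the SNI desipramine library with a medium spiny score of -2.39, Rgs8 does not, and Rgs10 falls across the whole range of the cortical score.

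For each member the 3 genes of most similar pattern were found among 11237 genes of a mean log2 CPM of at least 3, by Pearson's r over the 30 libraries with the library set effect removed. Differences between groups were left in. These values describe these libraries, which share the differences in marker scores given above. Rgs14 was closest to Icam5, an adhesion molecule of forebrain dendrites (r = 0.98), Itpka, an inositol trisphosphate kinase of dendritic spines (0.97), and Camkv (0.97), and 473 genes exceeded an r of 0.8 with it. The log2 CPM of Rgs14 was 3.74 in SNI desipramine replicate 2, and the next lowest value was 5.39, in replicate 3. How far these r values rest on replicate 2 was not tested. Rgs20 was closest to Ric8b, a chaperone of stimulatory G alpha subunits (0.95), Aven (0.94) and St8sia3os (0.92). Rgs17 was closest to Dzip3 (0.93), Uba6 (0.93) and Fxr1 (0.91). Rgs19 was closest to Grk2, a kinase that turns off active receptors (0.9), Lasp1 (0.89) and Gabbr2, a subunit of the GABA-B receptor (0.86).

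Rgs2 was closest to Klf5, Cpne2 and Fam110b, each at 0.9. Rgs4 was closest to Igsf5 (0.9), Kcnq3, a potassium channel subunit of the M current (0.88), and Hipk4 (0.88). Rgs10 was closest to Sfta3-ps (0.89), Gpsm1, an activator of G protein signalling that binds G alpha i (0.88), and Vat1l (0.88). Rgs8 was closest to Asic1, an acid-sensing ion channel (0.84), Gpat3 (0.84) and Txnrd1 (0.83), and Rgs3 to Spsb1 (0.84), Rassf2 (0.78) and Ppfibp2 (0.78). Rgs16 had no gene above 0.8, with Trim62 at 0.79, Zcchc3 at 0.67 and Ctu1 at 0.66. No member was among another member's 3 closest genes.

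The remaining RGS genes did not pass in any of the 15 comparisons. Of 11 listed, 8 were tested, and Rgs1, Rgs18 and Rgs21 had too few counts. In SNI against sham on desipramine the 2 of smallest p were Rgs13 at -2.64 ± 0.99 (log2, SE, adjusted p = 0.0839), a gene with a mean of 0.198 CPM, and Rgs11 at -0.28 ± 0.17 (adjusted p = 0.294). In desipramine against saline in SNI mice they were Rgs5, a gene of pericytes, at 0.35 ± 0.11 (adjusted p = 0.122), and Rgs7 at 0.19 ± 0.09 (adjusted p = 0.28). Rgs7 was at 0.29 ± 0.09 in desipramine against tianeptine in SNI mice (adjusted p = 0.0766).

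Genes that act with RGS proteins passed mainly in SNI against sham on desipramine, in which 11.3% of all genes passed and the septal markers differed. The counts of each list below are to be read against that share, and rose and fell count only genes that passed. By direction alone, 6 of 8 G alpha subunits, 9 of 14 effectors, 3 of 7 partners and 14 of 15 receptors were lower. So were all 14 immediate early genes and 12 of 16 clock genes, and the rest of each list was higher. Of 8 G alpha subunits that RGS proteins bind, 0 rose and 1 fell, Gnao1, the main brain Go subunit, at -0.26 ± 0.08 (log2, SE, adjusted p = 0.0324). Of 14 effectors of Gi and Gq, 3 rose and 2 fell. Those higher were the cyclase Adcy8 (1.29 ± 0.32, adjusted p = 0.0149), the phospholipase Plcb4 (1.27 ± 0.29, 0.00971) and the channel subunit Kcnj5 (2.19 ± 0.53, 0.0125). Those lower were the cyclases Adcy1 (-1.14 ± 0.37, 0.0474) and Adcy9 (-0.5 ± 0.09, 0.00579).

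Of 7 binding and turnover partners, 1 rose and 1 fell in that comparison. Ate1, the arginyl transferase of the N-end rule pathway that marks Rgs4, Rgs5 and Rgs16 proteins for breakdown, was at 0.35 ± 0.12 (log2, SE, adjusted p = 0.0483). Ppp1r9b, the spine scaffold spinophilin that recruits RGS proteins to receptors, was at -0.53 ± 0.15 (adjusted p = 0.0271). Of 15 receptors coupled to Gi or Gq, 1 rose and 1 fell, the latter being the muscarinic receptor gene Chrm1 (-0.95 ± 0.25, adjusted p = 0.0184). Of 14 immediate early genes 0 rose and 3 fell, Egr4 (-1.31 ± 0.37, adjusted p = 0.0243), Egr1 (-1.1 ± 0.33, 0.0349) and Dusp6 (-0.91 ± 0.28, 0.0363). Of 16 clock genes 0 rose and 3 fell, Nr1d1, Cry2 and Cry1. In tianeptine against saline no gene of these lists passed in either surgery. With the tissue scores as covariates, or without SNI desipramine replicates 2 and 3, 0 genes of the whole table passed in SNI against sham on desipramine.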

How the data were processed

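Polyadenylated RNA of 30 accumbens punches was sequenced with a stranded kit, per the labels' protocols. Per the submitters' processing notes, the authors used Trim Galore, HISAT2 on mm10, SAMtools and featureCounts, with no version, annotation release or strand setting given. The deposited table holds whole-number counts per gene, and the authors' FPKM table was not used. Groups came from the labels. Library numbers run in blocks by group in the first set, so any effect of handling order cannot be told apart from the group. No 2 libraries of a group were near copies.

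Symbols came from GENCODE M21 on mm10 (54349 IDs matched exactly, 792 without version, 260 unmatched with 0.051% of counts). The test was edgeR 4.0.16 (R 4.3.3): filterByExpr, TMM, robust quasi-likelihood fit on all libraries with terms for group and library set, 23 residual degrees of freedom, 15 contrasts, 2-sided. It was also run on simulated counts with the same spread for all genes and no differences of library set or tissue. That run does not show how the test behaves where libraries differ in tissue. Levels are CPM, and log2 CPM used a prior count of 2. Intervals are at 95%.

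Named genes were the 10 members, members of fixed lists that passed (up to 4 of smallest p), the 2 other RGS genes of smallest p where none passed, and the 3 genes most alike. A list gene covered by this rule is not reported here. The members and lists were chosen with earlier results of these data known. Alternatives were RLE size factors, DESeq2 1.42.0, limma-voom 3.58.1, no filter, no set term, the first set only, a replicate block, tissue scores and each library left out. Leaving out SNI desipramine replicates 2 and 3, or sham saline replicates 2 and 3, was added after seeing the data.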

Additional observations from a re-analysis of the deposited data

Results flagged for a closer look

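Rgs2 in SNI saline replicate 5 was 73.4 CPM, apart from the other 4 libraries of its group, which ran up to 104 CPM. The gap to the nearest library was 0.797 of the group's range, above Dixon's 95% critical value of 0.71 for 5 libraries. The library belongs to the second set, and its cortical excitatory score of 2.58 was the highest of its group. Their part in the low Rgs2 value was not tested. Of 60 groups of values checked, 1 stood out, where about 3 would by chance, at a rate of 5%.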

How the results depend on the processing

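Of 445 alternatives run for the 18 member differences with an unadjusted p under 0.05, 426 kept their side of the threshold and 425 of these also their direction. The exception was Rgs4 in SNI against sham on desipramine, at 0.05 with tissue scores. The call was lost in 9 and gained in 10, and 0 called ones reversed. All 9 losses were of Rgs14 in SNI against sham on desipramine, the only 1 of the 18 called with all libraries. It kept its call in 9 of 18 alternatives. An uncalled difference keeps its side by staying uncalled, so the 426 say little about how stable a call is. In SNI against sham on desipramine, where 1 member passed, 2 passed with DESeq2 and 2 without sham saline replicates 2 and 3. There, 0 passed without SNI desipramine replicates 2 and 3, in the first library set only, without a filter on low counts and with tissue scores as covariates, and between 0 and 4 passed as single libraries were left out. The genes passing over the whole table fell to 0 without SNI desipramine replicate 2, to 613 without replicate 3, and rose to 5903 without replicate 4, from 2682. In desipramine against tianeptine in SNI mice 1 member passed with DESeq2, and 0 to 2 as single libraries were left out. Over both surgeries 1, Rgs20, passed with tissue scores (0.26, adjusted p = 0.0469, against 0.06). Leaving out single libraries gave 0 to 2 in desipramine against saline in SNI mice, 0 to 2 in the average of SNI against sham and 0 to 1 in the difference of the desipramine effect between surgeries, where 0 passed with all libraries. Of the 50 relations with marker scores, 18 passed with all libraries, 13 in the first set and 11 without the 2 farthest libraries. The causes were not tested. Mean levels with RLE size factors differed from those with TMM by less than 1 SD.

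No label pairs the libraries by replicate number, and no clear pairing was seen. Over 67 pairs of same-numbered libraries the correlation of deviations ran from -0.64 to 0.44, with a median of -0.01, and 12 exceeded 0.1. Libraries of different numbers were not compared in this way. With a replicate block, Rgs14 in SNI against sham on desipramine differed by -1.03 (log2, adjusted p = 0.0349 with edgeR), 1 member passed there, and no other member's call changed. Depth limits Rgs16 most, with 79 counts in its lowest library.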
